A study of Rattus norvegicus with 23 samples.

Results

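The 89 genes described here rose in steps through 36 h of differentiation in rat hippocampal neural stem cells. They were chosen by their own time course: counts were scaled to the total of the library (CPM), averaged within each substrate and time, and averaged again over the soft and stiff substrates at each time. On the scale of log2(CPM + 1), a gene was kept where the mean gained at least 1 from 0 to 12 h, was higher at 24 h than at 12 h, and gained at least 1 from 12 to 36 h. These 89 were found among 32883 listed genes, of which 18319 had at least 1 count. All 89 passed the filter on low counts that left 11857 genes for testing, though a gene low at 0 h could pass through its later libraries alone. The rise, its size and its order in time are what selected the genes, so they are given below as a description and with no test. The rule averaged soft and stiff, and the difference between them was tested. A gene could still pass through the substrate where it was higher, since 15 of the 89 met the rule on soft only and 14 on stiff only. The choice of genes was thus not fully independent of that difference.

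The cells were wild-type (WT) neural stem cells from the hippocampus of adult female rats. All groups, those at 0 h included, carry the same label for the medium, DMEM-F12 with N2 plus 1 uM retinoic acid and 1% FBS, which is meant for mixed differentiation. Cells lay on a soft or a stiff substrate and were taken at 0, 12, 24 or 36 h, which makes 8 groups and 23 libraries. Each group has rounds 1, 2 and 3, but for soft at 12 h only rounds 1 and 3 were analysed here. The sources used here give neither how stiff the substrates were nor how the cells were treated up to 0 h. The labels do not say whether the rounds were separate cultures or animals, so the p-values cover only the variation among these libraries, which may be technical.

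Adult hippocampal neural stem cells divide to renew themselves and can form neurons, astrocytes and, in culture, oligodendrocytes. Retinoic acid enters the nucleus and binds retinoic acid receptors, which pair with retinoid X receptors on DNA and switch on a first set of target genes directly. Some of those targets are themselves regulators, so that further genes follow later, while factors in serum act on the same cells through receptors at the cell surface. The deposited table gives Ensembl rat identifiers without gene names, and 0 of the 32883 identifiers matched the table of names used here. Which of the 89 genes belong to the retinoid pathway or to a cell type could therefore not be read, and the labelled cell type could not be checked against its markers.

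QuantSeq FWD, the library kit, reads a tag near the 3' end of each polyadenylated transcript, so a CPM depends little on gene length. They held 2462360 to 6811157 counts. At 12 h the depths did not overlap, with 5428086 and 6519349 counts in the soft libraries against 2462360 to 4803755 in the stiff libraries. The part of depth in the 12 h differences was not tested, and the count after thinning every library to the smallest total, which evens the depth and also lowers it, is given beside that result.

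Together the 89 genes grew from a small to a sizeable share of the cells' transcripts. Their summed level was 1335 CPM at 0 h, 5289 CPM at 12 h, 12073 CPM at 24 h and 15654 CPM at 36 h, which is 0.134%, 0.529%, 1.21% and 1.57% of all counts. The sum thus rose 3.96-fold in the first 12 h, 2.28-fold in the next and 1.30-fold in the last, and 11.7-fold over the whole course. In bulk RNA such a rise cannot tell more cells of a type from more RNA per cell. A few genes carried much of the sum, since the 3 most abundant held 29.9% of it at 36 h and the 10 most abundant 52.7%.

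**Figure D1:**
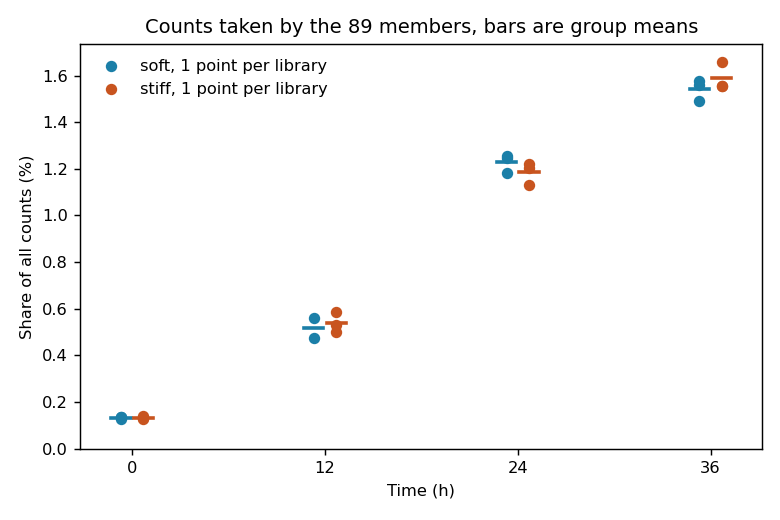
Share of all counts (%) taken by the 89 genes against time (h), with 1 point per library in blue for soft and orange for stiff, and bars at the group means. The share climbs from about 0.134% at 0 h to 1.57% at 36 h, and soft and stiff points lie side by side at each time.

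The summed level followed the same course on both substrates. On soft it was 1336 ± 50.9 CPM at 0 h (SD, n = 3), 4757 and 5622 CPM in the 2 libraries at 12 h, 12286 ± 390 CPM at 24 h and 15418 ± 454 CPM at 36 h (SD, n = 3 each). On stiff it was 1335 ± 57.1 CPM at 0 h, 5387 ± 426 CPM at 12 h, 11860 ± 469 CPM at 24 h and 15890 ± 603 CPM at 36 h (SD, n = 3 each). The soft and stiff libraries overlapped at each of the 4 times, while no library of one time reached the range of another time.

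Most of the genes started low. The median gene stood at 3.98 CPM at 0 h, with a lowest of 0.0576 and a highest of 295 CPM, and 23 of the 89 were under 1 CPM. At 12 h the median was 22 CPM, at 24 h 53.8 CPM and at 36 h 83.5 CPM, where the lowest gene had 4.04 and the highest 1625 CPM. The number of genes at 10 CPM or more went from 32 at 0 h to 56, 78 and 83 at the later times, and the number at 100 CPM or more from 1 to 15, 31 and 41. In 12 genes each of the 6 libraries at 0 h was under 1 CPM, and these genes had 4.04 to 145 CPM at 36 h. None of the 89 lacked counts in all 0 h libraries. Libraries of a group agreed less well at the low levels of 0 h, where the median coefficient of variation was 30.7% on soft and 26.3% on stiff, than at 36 h, where it was 11.4% and 11%.

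On the log2 scale the rise was front-loaded, and it flattened towards 36 h. In CPM the summed level of the 89 gained most in the middle step, from 5289 to 12073 CPM. On the log2(CPM + 1) scale the median gene gained 1.56 from 0 to 12 h, 1.13 from 12 to 24 h and 0.35 from 24 to 36 h. The rule sets a floor of 1 on the first of these steps and does not use the last one alone. The first step was the largest of the 3 in 69 genes and the middle step in 20, and the last step was the largest in 0. In 65 genes each step was smaller than the one before, and in 0 each was larger. The middle step exceeded the last in 85 of 89 genes (95.5%). This share is partly set by the rule, which asks for a positive middle step. It was 83.6% in the 214 genes that met only the first large step, 85.1% in the late risers that met only the second (both sets are described below) and 57.7% in all tested genes, and nothing is read from the difference.

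**Figure D2:**
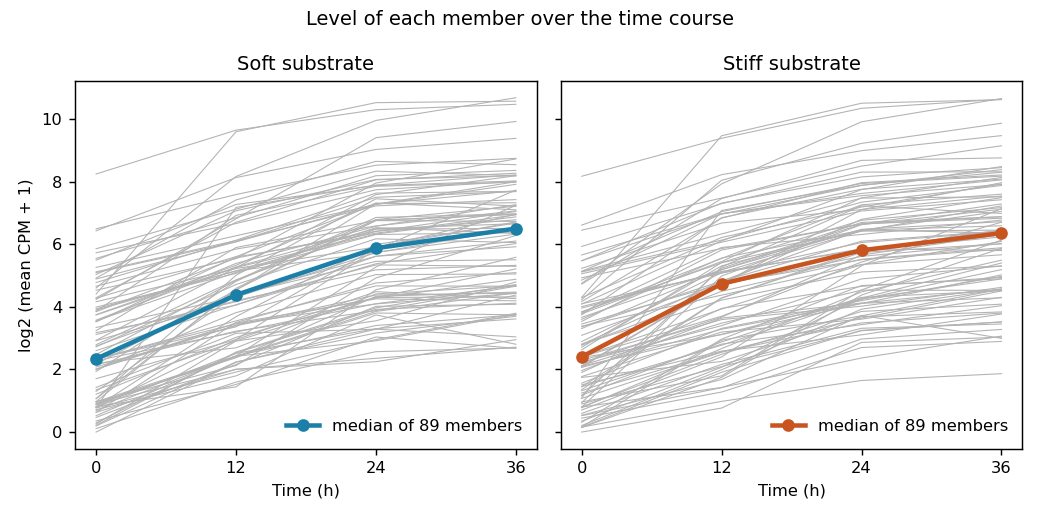
Level of each of the 89 genes as log2(mean CPM + 1) against time (h), on soft (left) and stiff (right), with a thin line per gene and a thick line for the median. On both substrates most lines climb up to 24 h and flatten after that.

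Over the whole course the median gain in log2(CPM + 1) was 3.07, with a lowest of 2.12 and a highest of 7.32. The smallest gain on this scale was not the smallest fold in CPM. The gene at 2.12 rose 9.9-fold, while another that gained 2.15 rose 4.57-fold. A gain of 3 or more was seen in 47 genes, of 4 or more in 26 and of 5 or more in 14. The median gene had made 52.6% of its log2 gain by 12 h and 88.1% by 24 h. By 12 h the share ran from 19.2% to 84.6% between genes, so that 3 genes had made 70% or more of their gain and 5 genes 30% or less. On this scale the size of the rise was only weakly correlated with the share made by 12 h or with the starting level. Across the 89 genes Pearson's r between the rise and the share made by 12 h was 0.132 (Spearman's rho 0.162), and between the level at 0 h and the rise it was -0.262 (rho -0.224). Both are descriptions over genes from the same libraries.

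The stepwise rise was clear over the first 24 h and less so over the last 12 h. Every 12 h library lay above every 0 h library in 82 of the 89 genes, and every 24 h library above every 12 h library in 80. Over all tested genes the same held for 9.24% and 14.3%, and since the rule used these steps nothing is read from the difference. From 24 to 36 h every later library lay above every earlier one in only 28 genes (31.5%), against 4.26% of all tested genes, and in 1 gene every 36 h library lay below. The 36 h values were used by the rule too, so this share is likewise only described. The mean fell back between 24 and 36 h in 9 genes and grew by less than 0.2 in another 15. Read within a round, 65 and 66 genes were higher at each later time on soft (rounds 1 and 3) and 78, 83 and 75 on stiff (rounds 1, 2 and 3), and 48 of 89 were so in all 5 series with 4 times.

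Genes lay close on either side of each limit of the rule. With that cut, the nearest genes inside on the first step gained 1.0028 and 1.0044, at 171 and 72.9 CPM at 36 h. The nearest outside gained 0.9877 and 0.9731, at 86.9 and 27.8 CPM. On the gain from 12 to 36 h the nearest inside had 1.0026 and 1.0164, at 22.1 and 60.0 CPM, and the nearest outside 0.9969 and 0.9953, at 136 and 14.9 CPM. The limit between 12 and 24 h removed 0 genes that met the other limits. With log2 steps of 0.8 in place of 1 the rule gave 165 genes, and with steps of 1.5 it gave 26.

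**Figure D3:**
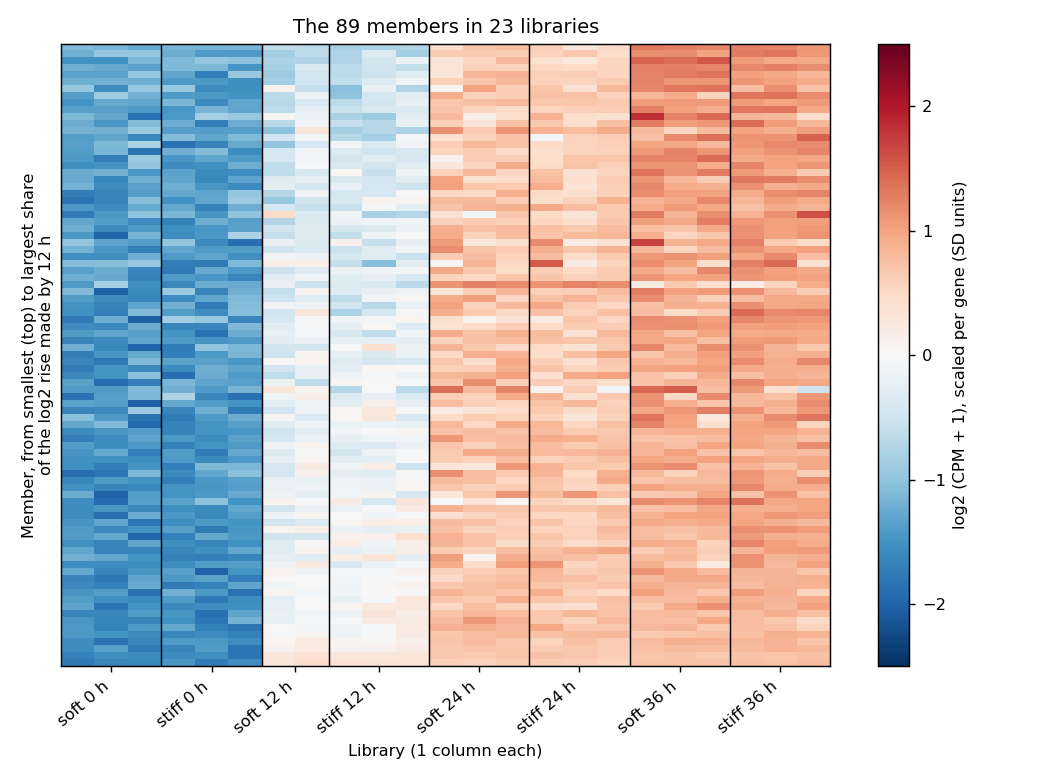
Level of the 89 genes (rows, ordered by the share of their rise made by 12 h) in the 23 libraries (columns, grouped by time and substrate), as log2(CPM + 1) centred on each gene's mean and divided by its SD over libraries. Blue (below the gene's mean) at 0 h gives way to pale colours at 12 h and red (above it) at 24 and 36 h, with the palest 24 h and deepest 36 h red in the top rows, which made the smallest share by 12 h.

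ENSRNOG00000032922 was the most abundant of the genes at 36 h and rose in each of the 3 steps. On soft it measured 23.7, 24.1 and 22.2 CPM at 0 h, 217 and 355 CPM at 12 h, 942, 854 and 1179 CPM at 24 h and 1674, 1495 and 1752 CPM at 36 h. On stiff it measured 29.0, 21 and 27.8 CPM at 0 h, 196, 215 and 317 CPM at 12 h, 838, 919 and 1130 CPM at 24 h and 1691, 1499 and 1641 CPM at 36 h. No 2 times overlapped, and at each time the soft and stiff libraries did. At 12 and at 24 h the round 3 library was the highest on both substrates. From 0 to 36 h the mean rose 66.0-fold, with 56.3% of the log2 gain made by 12 h.

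ENSRNOG00000013794 reached nearly the same level by another course. On soft it stood at 17, 23 and 20.7 CPM at 0 h, 720 and 825 CPM at 12 h, 1462, 1427 and 1526 CPM at 24 h and 1517, 1602 and 1440 CPM at 36 h. On stiff it stood at 20.6, 23 and 12.6 CPM at 0 h, 697, 699 and 725 CPM at 12 h, 1566, 1469 and 1326 CPM at 24 h and 1558, 1495 and 1661 CPM at 36 h. The libraries of 24 and 36 h overlapped on both substrates, and the gain in that last step was 0.08 on the log2 scale. It rose 79.3-fold in all and had made 83.0% of its log2 gain by 12 h.

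The third most abundant gene at 36 h was the one member already abundant at the start, with 258 to 315 CPM over the 0 h libraries, and rose 5.10-fold to between 1305 and 1762 CPM. The gene with the largest rise had 2 to 11 counts per library at 0 h (0.391 to 1.77 CPM). It had 123 to 164 CPM at 12 h, 219 to 256 CPM at 24 h and 293 to 337 CPM at 36 h, a 331-fold rise with 84.6% of the log2 gain in the first 12 h. These 2 genes show that abundance at 36 h was reached both from a high start and from near silence.

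A late pattern was seen in 4 genes, which gained 1 or more between 24 and 36 h. They had 2.04 to 9.38 CPM at 12 h and 52.2 to 157 CPM at 36 h, and had made 19.2% to 27.4% of their log2 gain by 12 h. The one with the largest last step, 1.90, had 0 to 6 counts per library at 0 h and mean levels of 0.534, 4.34, 38.2 and 145 CPM at the 4 times, a 272-fold rise that was the second largest of all 89. The least advanced at 12 h had means of 0.952, 2.92, 25.8 and 72.9 CPM. At the other extreme, the gene with the strongest fall after 24 h had means of 0.545, 2.34, 12.3 and 6.48 CPM, and its last step was -0.83. It still met the rule, which compares 36 h with 12 h and not with 24 h.

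Genes that met only one of the 2 large steps are given beside the 89 for their levels. All 3 sets were cut from the same time means, so their levels and last steps differ in part by construction and are described with no test. The 214 genes that rose by at least 1 to 12 h and by less than 1 from 12 to 36 h had medians of 5.84, 29.1, 34.2 and 31.7 CPM. Between 24 and 36 h their mean fell in 118 (55.1%), against 9 of the 89 (10.1%) and 50.1% of all tested genes. The 568 genes that rose by less than 1 to 12 h and by at least 1 from 12 to 36 h had medians of 7.45, 8.05, 18.5 and 28.3 CPM, and 9 of the 565 tested among them (1.59%) fell in the last step. The 89 had medians of 3.98 CPM at 0 h and 83.5 CPM at 36 h. The biological coefficient of variation, the spread between libraries beyond counting error, had a median of 0.126 in the 89, 0.125 in the early set, 0.144 in the late set and 0.113 in all tested genes.

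The median rise was close in size on soft and stiff substrates. Fitted with edgeR, the median gene gained 1.98 (soft) and 1.96 (stiff) on the log2 scale from 0 to 12 h, 1.18 and 1.15 from 12 to 24 h, and 0.29 and 0.41 from 24 to 36 h. From 0 to 36 h the median was 3.68 on both. Across the 89 genes the rise in log2(CPM + 1) on stiff followed that on soft, with Pearson's r of 0.933 and Spearman's rho of 0.879, and 45 of 89 rose more on stiff. The genes share their libraries, and the averaged rise chose them, so this is a description. The first step was larger on stiff in 44 of 89 genes (49.4%, against 52.0% of all tested genes) and the middle step in 41 (46.1%, against 47.9%). The last step was larger on stiff in 60 (67.4%, against 47.5%), with medians of 0.41 on stiff and 0.30 on soft. These counts were made after the data were seen and were not tested.

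Applied to a single substrate, the rule kept most but not all of the genes. It gave 86 genes on soft alone, 73 of them among the 89, and 94 on stiff alone, 72 of them among the 89. Both substrates were met by 58 of the 89, soft alone by 15, stiff alone by 14 and neither by 2. With each of the 23 libraries left out in turn the rule gave 84 to 97 genes, and 65 of the 89 were in every such set.

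Which of the genes depended on stiffness was tested at each time, on all 11857 genes, with edgeR's quasi-likelihood test and a Benjamini-Hochberg adjusted p under 0.05 as the call. Over the 4 single times, their mean and the tests of differences between times, 13 of the 89 genes were called at least once and 76 never. The share of all tested genes called at least once was not taken, while the 12 h test alone called 6.6% of them. Nothing is therefore read from this pooled count. At 0 h 0 of 89 were called, and 0% of all tested genes. DESeq2 also called 0 at 0 h, while an unadjusted p under 0.05 was reached by 8 of the 89 in edgeR (8.99%, against 3.63% of all tested genes) and by 7 in DESeq2. The fitted differences at 0 h ran from -3.52 to 2.46 on the log2 scale. Their median standard error was 0.30, so in many of the genes small differences could be missed. In the gene highest at 0 h (295 CPM) the standard error was 0.086.

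**Figure D4:**
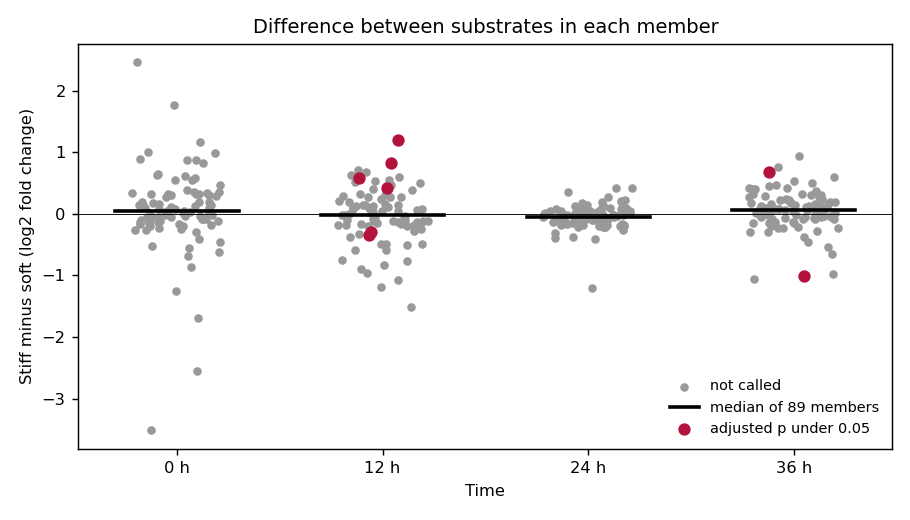
Fitted stiff minus soft difference (log2) of each of the 89 genes at 0, 12, 24 and 36 h, with 1 point per gene, called genes in red and a bar at the median. The medians lie between -0.05 and 0.07, with 6 genes called at 12 h, 2 at 36 h and 0 at the other two times.

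At 12 h 6 of the 89 genes differed between the substrates, 4 higher and 2 lower on stiff. That is 6.74% of the 89 against 6.6% of all tested genes, of which 5.36% were higher and 1.24% lower on stiff, a share close to that background. The median difference was -0.01 in the 89 and -0.03 in all tested genes, and 43 of the 89 were above 0. The split of calls depended on scaling, being 4 higher and 1 lower with RLE factors and 4 and 0 with unscaled totals. Without soft replicate 1 there were 3 calls (2 higher, 1 lower), without stiff replicate 2 there were 3 (3 higher, 0 lower), and with the low-count filter dropped there were 12. With all libraries thinned to the smallest total 5 were called. The shares of all tested genes called under other settings are not given, here or for the later tests. A change in count is therefore not read as particular to the 89.

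ENSRNOG00000002419, chosen for print after its values were seen, had the smallest p-value at 12 h among the 89. Its 12 h libraries held 100 and 123 CPM on soft and 232, 282 and 275 CPM on stiff, so that every stiff library was above both soft ones. The group means were 112 ± 16.3 (SD, n = 2) and 263 ± 27.2 CPM (SD, n = 3), a log2 difference of 1.19 ± 0.166 (SE) with an adjusted p of 7.25e-06 in edgeR's quasi-likelihood test. Before and after 12 h the substrates overlapped. At 0 h it had 18.2, 25 and 10.4 CPM on soft and 16.1, 19.6 and 17.6 CPM on stiff. At 24 h it had 785, 699 and 548 CPM on soft and 662, 519 and 609 CPM on stiff, and at 36 h 1007, 897 and 1001 against 1077, 916 and 804 CPM. The gene therefore stood higher on stiff at 12 h and rose 53.3-fold to a like level on both. The drop of the stiffness difference was itself tested: it was larger at 12 h than at 36 h by 1.23 ± 0.212 (SE, log2, adjusted p = 0.000292 in edgeR). The 12 h call held in all 14 settings tried, with differences of 1.08 to 1.32.

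Of the other 3 genes called higher on stiff at 12 h, one had 68.9 CPM in each of the 2 soft libraries. On stiff it had 125 ± 19.1 CPM (SD, n = 3), a log2 difference of 0.82 ± 0.157 (SE), and it was called in all 14 settings. A second stood at 104 and 124 CPM in the soft libraries against 158 ± 9.10 CPM on stiff (SD, n = 3). Its difference was 0.43 ± 0.097 (SE), and it was called in 13 of 14. The third stood at 47.7 against 73.4 CPM, with a difference of 0.58, and was called in 10. Both genes called lower on stiff changed by less, by -0.30 ± 0.0939 and -0.35 ± 0.106 (SE), and each was called in 6 of 14 settings. The gene at -0.30 was the third most abundant of the 89 at 36 h, described above.

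At 24 h none of the genes was called between the substrates. edgeR called 0 of 89 (0% of all tested genes) and DESeq2 called 0, while 4 of 89 had an unadjusted p under 0.05 in edgeR (4.49%, against 3.02% of all tested genes) and 3 in DESeq2. The median difference was -0.05 in the 89 and 0.00 in all tested genes, with 31 of 89 above 0 (34.8%, against 49.2%).

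At 36 h 2 of the 89 genes were called, 1 higher and 1 lower on stiff, among 8 called of all tested genes (2.25% against 0.0675%). An unadjusted p under 0.05 was reached by 18 of the 89 (20.2%), against 7.04% of all tested genes. The median difference was 0.07 in the 89 and -0.01 in all tested genes, and 52 of the 89 were above 0 (58.4%, against 48.3%). It was 0.17 in the early set, with 1 of 214 called, and -0.04 in the late set, with 0 of 565 called, so the lean to stiff was not particular to the 89. Both calls rested on the full set of libraries: none was left without soft replicate 1, stiff replicate 2 or stiff replicate 3, and 1 was left without each of the other 3 libraries of that time. Without the low-count filter 8 were called, with DESeq2 4, with the compared groups alone 5 and after thinning 1. As at 12 h, these counts stand without the shares of all tested genes and are not read as particular to the 89.

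**Figure D5:**
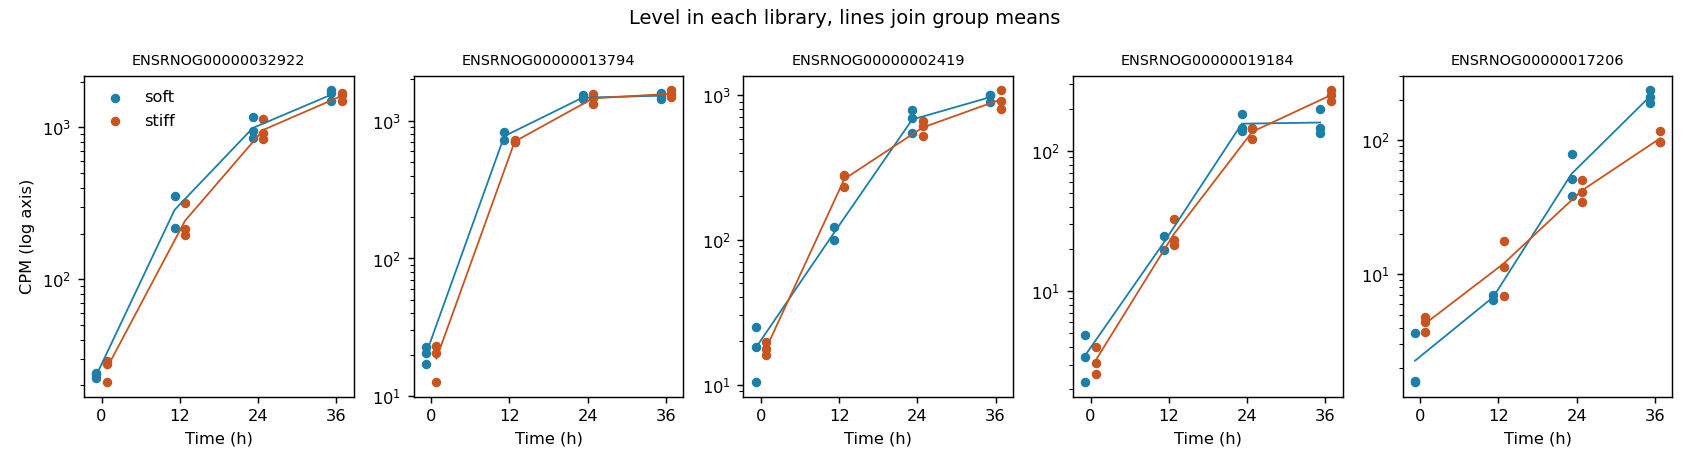
Level (CPM, log axis) of the 5 identified genes in each library against time (h), with 1 panel per gene, soft in blue, stiff in orange and lines through the group means. ENSRNOG00000002419 parts by substrate at 12 h, ENSRNOG00000019184 and ENSRNOG00000017206 part at 36 h, and the 2 most abundant genes overlap at each time.

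ENSRNOG00000017206, again chosen after its values were seen, was the gene called lower on stiff at 36 h. Its libraries held 210, 189 and 235 CPM on soft and 117, 96.3 and 96.7 CPM on stiff, without overlap. The means were 211 ± 23 and 103 ± 11.7 CPM (SD, n = 3 each), a log2 difference of -1.02 ± 0.172 (SE) with an adjusted p of 0.00797 in edgeR's quasi-likelihood test. It was one of the 4 genes with a late rise. At 0 h it had 1.6, 1.6 and 3.6 CPM on soft and 3.7, 4.8 and 4.4 CPM on stiff, narrowly without overlap and in the opposite order. At 12 h it had 6.4 and 7.1 CPM on soft and 6.9, 11.4 and 17.8 CPM on stiff, and at 24 h 38.3, 51.2 and 78.5 against 41.1, 34.8 and 50.5 CPM. At 12 and 24 h the substrates overlapped. The differences at 0 and 12 h were 1.00 ± 0.430 and 0.71 ± 0.339 (SE, log2) towards stiff and were not called. The stiffness difference at 12 h exceeded that at 36 h by 1.73 ± 0.380 (SE, adjusted p = 0.00397 in edgeR), whereas the change from 0 to 36 h, -2.01 ± 0.459 (SE), had an adjusted p of 0.345. With one library left out the 36 h difference stayed between -1.11 and -0.94, and the call was kept in 2 of 6 cases. It was lost without soft replicate 1, soft replicate 3, stiff replicate 2 or stiff replicate 3, with adjusted p-values over all settings tried from 3.00e-13 to 0.105.

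ENSRNOG00000019184, also chosen after its values were seen, was the gene called higher on stiff at 36 h. Its libraries held 145, 134 and 199 CPM on soft and 270, 227 and 250 CPM on stiff, without overlap, and means of 159 ± 34.7 and 249 ± 21.4 CPM (SD, n = 3 each). The log2 difference was 0.67 ± 0.134 (SE), with an adjusted p of 0.0313 in edgeR's quasi-likelihood test. At 24 h the order was not seen, with 183, 139 and 147 CPM on soft and 144, 121 and 146 CPM on stiff. At 12 h it had 19.5 and 24.7 CPM on soft and 21.2, 23.1 and 32.5 CPM on stiff, and at 0 h 4.9, 2.2 and 3.4 against 2.6, 3.1 and 4.0 CPM. From 24 to 36 h the gene thus went on rising on stiff while its soft libraries overlapped between these times. The call held in 1 of the 6 cases with a library left out, that without soft replicate 3, where differences ran from 0.55 to 0.85. After thinning the difference was 0.63 with an adjusted p of 0.114, and over all 15 settings, of which 9 gave a call, the adjusted p went from 5.87e-07 to 0.242.

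Whether the effect of stiffness changed with time was tested on the difference itself. A stiffness effect at 12, 24 or 36 h unlike that at 0 h was called in 6 of the 89 genes, against 3.31% of all tested genes, and 23 of the 89 (25.8%) had an unadjusted p under 0.05, against 13.6%. Both genes called at 36 h and 3 of the 6 called at 12 h were among these 6. Without stiff 24 h replicate 2 the count was 3, with DESeq2 11 and with no filter 15. Between 12 and 24 h the effect differed in 3 of the 89 (4.44% of all tested genes), all with a larger value at 12 h and all among the 6 called at 12 h. Their count was 5 without soft 24 h replicate 1 or soft 12 h replicate 3, and 7 with no filter. Leaving out stiff 12 h replicate 1 gave 8.

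Between 12 and 36 h the effect differed in 8 of the 89 genes (5.51% of all tested genes), 4 larger and 4 smaller at 12 h. In each of these 8 the fitted difference had one sign at 12 h and the opposite sign at 36 h. In ENSRNOG00000002419 the 36 h value was near 0, at -0.04, while in ENSRNOG00000017206 it was -1.02. The count fell to 4 without stiff 12 h replicate 1, stiff 12 h replicate 2 or stiff 36 h replicate 3, and to 5 without soft 12 h replicate 3, soft 36 h replicate 3 or stiff 12 h replicate 3. It was 13 with the compared groups alone and 14 with no filter. The change in the effect from 0 to 36 h was called in 0 of 89 by edgeR (0.00843% of all tested genes) and in 0 by DESeq2. An unadjusted p under 0.05 was reached in edgeR by 15 of the 89 (16.9%, against 5.88% of all tested genes). These contrasts share the 12 h and 36 h libraries with the tests at single times.

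No gene of the 89 was called for a difference between the substrates averaged over the 4 times. edgeR called 0 (0.447% of all tested genes), with a smallest adjusted p of 0.127, while DESeq2 called 1. In edgeR 6 of the 89 had an unadjusted p under 0.05 (6.74%, against 8.87% of all tested genes). Leaving out soft 24 h replicate 1 or stiff 0 h replicate 1 gave 1 call, as did thinning, and no filter gave 2. At 12 h 7 of 214 early genes (6 higher, 1 lower on stiff) and 31 of 565 late genes (30 higher, 1 lower) were called. That is 3.27% and 5.49%, beside 6.74% of the 89. A change of the effect between 12 and 36 h was called in 15 early genes (5 larger, 10 smaller at 12 h) and 29 late genes (28 larger, 1 smaller), which is 7.01% and 5.13%, beside 8.99% of the 89. These shares were not tested against each other.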

How the data were processed

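Per the labels, RNA from cell pellets was made into QuantSeq FWD libraries. The build rn6 and the tools FastQC, HTSeq and HISAT2 2.1.0 are listed in the submitters' processing notes. The tools' roles, the annotation, the strand setting and the handling of duplicates are not stated in any source used here. The authors deposited 1 column of raw whole-number counts per library. Overlapping genes and near-identical copies may share reads.

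The CPM values of the rule and of the text are counts over the library total, with a pseudocount of 1 on the log2 scale. Tests used edgeR 4.0.16 (R 4.3.3): filterByExpr (minimum count 10, minimum total 15), TMM factors, 1 quasi-likelihood fit of 8 group means to 23 libraries and Benjamini-Hochberg adjustment over 11857 genes at 0.05. Standard errors follow from the F statistic. TMM scaling moved the median of all genes by less than 0.1 (log2) in each time step. Tests were tried on simulated data. Replicates within each group differed by more than sampling noise (chi-square per degree of freedom 2.42 to 9.11 for genes of 20 or more counts), and each library was kept as 1 sample. Figures used matplotlib 3.10.9.

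The members and lists were chosen with earlier results of these data known. As 0 of 32883 identifiers matched the name table (assembly GRCr8), the gene lists, cell type markers, promoter motifs and sequences were not used. The naming rule then allows the 2 members highest at 36 h. A further 3, called at 12 or 36 h, were chosen after their values were seen.

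Alternatives were RLE factors, no filter, at least 5 CPM in 3 libraries, the compared groups alone, DESeq2 1.42.0, a block for the round, each library left out, and for the rule other pseudocounts, thresholds, centres and single substrates. Unscaled totals and thinning were added after the data were seen.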

Additional observations from a re-analysis of the deposited data

Results flagged for a closer look

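Among the 89 genes, 6 were called by edgeR's quasi-likelihood test for a difference between stiff and soft that was unlike at 0 h and at a later time. The difference between stiff and soft changed from 12 to 24 h in 3 genes, which were all more in favour of stiff at 12 h. It changed from 12 to 36 h in 8 genes, 4 in each direction. Each of these is a test of the change itself, and the shares of all tested genes called by the same tests stand in the report. Depth also differed between soft and stiff at 12 h, and its part in these 3 counts was not tested. Thinning every library to the smallest total, which evens the depth and also lowers it, gave 4, 3 and 6.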

How the results depend on the processing

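Counts below are of the 89 genes called for stiff against soft, unless said otherwise. Under other settings, single libraries left out aside, 59 results stayed within 1.5 times the reported count and 22 did not. With no filter on low counts the calls were 12 at 12 h, 8 at 36 h, 2 for the mean of the 4 times, 15 for an effect unlike 0 h, 7 for 12 against 24 h, 14 for 12 against 36 h and 1 for 36 against 0 h. DESeq2 gave 4 at 36 h, 1 for the mean and 11 for an effect unlike 0 h. The compared groups alone gave 5 at 36 h, 5 for 12 against 24 h, 13 for 12 against 36 h and 1 for 36 against 0 h, and was not run for the mean and the effect unlike 0 h, which use all groups. Thinning, chosen after the data were seen, gave 1 at 36 h and 1 for the mean. The cause of these changes was not tested, and the shares of all tested genes under these settings are not given.

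The labels do not say what a round shares. Deviations of same-round soft and stiff libraries from their group means correlated at -0.0279 to 0.149, above 0 in 10 of 11 pairs and over 0.1 in 4. Of the 22 pairs of unlike rounds 18 were below 0. Deviations within a group sum to 0, so a positive same-round pair pushes the others down and the unlike pairs are not separate evidence. Of 23 libraries 19 correlated best with their own round, where stiff 12 h replicate 2 had no soft partner of its round to match. This is a hint of pairing from the data and not from the design, so the block was not made the main fit. With the round as a replicate block the calls were 9 at 12 h, 5 at 36 h (4 higher, 1 lower on stiff), 8 for 12 against 24 h, 11 for 12 against 36 h and 10 for an effect unlike 0 h, and 0 at 0 h, at 24 h, for the mean and for 36 against 0 h.

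With each library left out in turn the calls ran from 3 to 8 at 12 h, 0 to 1 at 36 h, 0 to 1 for the mean, 2 to 8 for 12 against 24 h, 4 to 7 for 12 against 36 h and 3 to 8 for an effect unlike 0 h, and stayed at 0 at 0 h, at 24 h and for 36 against 0 h. Soft 12 h replicates 1 and 3 leave 1 soft library at 12 h, taken to vary like the other groups. The difference of ENSRNOG00000002419 at 12 h ran from 1.08 to 1.32, that of ENSRNOG00000017206 at 36 h from -1.11 to -0.94 and that of ENSRNOG00000019184 from 0.55 to 0.85. The rule itself gave 84 to 97 genes with a library left out, 45 with a pseudocount of 5, 165 with steps of 0.8 and 26 with steps of 1.5.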
